A study of Mus musculus with 7 samples.

Results

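Retinoids are carried by binding proteins, turned over by oxidising and reducing enzymes, and read by nuclear receptors. The 9 genes described here, Rbp4, Crabp1, Crabp2, Rdh10, Dhrs3, Cyp26b1, Rara, Rarb and Rxra, cover these steps around Aldh1a3, the enzyme that was deleted. They were chosen by symbol, and each had a row among the 35013 gene symbols measured. RNA-seq had been done on sorted β-cells from 2 KO_db/db, 2 db/db and 3 db/+ mice, with a library from each mouse. All 3 groups carried the RIP-Cre Herr transgene, a Cre recombinase driven by the rat insulin promoter in a line chosen because it recombines in β-cells, and the Cre-dependent tdTomato reporter as tdT fl/+. At Aldh1a3, KO_db/db mice were fl/fl, whereas both control groups were fl/+ and so kept an intact allele. At the leptin receptor gene Lepr, KO_db/db mice and db/db controls were db/db, and the lean controls were db/+. db/db mice lack a working leptin receptor and become obese and diabetic. The study used adult mice of both sexes unless it states otherwise, but the labels give neither age nor sex for these 7. All mice were fasted before islet isolation, and the gate used to sort these libraries is not given in the sources used here.

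As background, retinol travels in blood bound to retinol binding protein 4 (RBP4) and transthyretin, and inside cells it is oxidised reversibly to retinaldehyde, by RDH10 among others. DHRS3 runs the reverse reaction, back to retinol. Aldehyde dehydrogenases of the ALDH1A family, ALDH1A3 included, oxidise retinaldehyde irreversibly to retinoic acid, which CYP26 enzymes break down. Retinoic acid acts through retinoic acid receptors (RARs), which bind DNA as pairs with retinoid X receptors (RXRs), and DHRS3, CYP26A1, CYP26B1 and RARβ are themselves well-known products of genes that retinoic acid induces.

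RAR and RXR pairs recognise direct repeats of a 6-base half-site, here AGGTCA with the variants AGTTCA and GGGTCA, while GGTTCA was also accepted, with 1, 2 or 5 bases between the copies (DR1, DR2 and DR5). RefSeq promoter windows on GRCm38.p6, from 250 bases before to 50 bases after each annotated start, were searched on both strands. A window was present for 7 of the 9 genes, with none for Crabp2 and Rdh10, and together the 7 had 14 windows because several genes have more than 1 start. Only the Rarb window held such a repeat, a DR5 spelled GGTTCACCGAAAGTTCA that ran from 53 to 37 bases before the start. Cyp26a1, a further breakdown enzyme, held the DR5 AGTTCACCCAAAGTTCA on the strand opposite to the gene, from 32 to 16 bases before its start. Bco1, which encodes the enzyme that cleaves β-carotene to retinaldehyde, held the DR1 AGGTCAAAGGTCA, also on the opposite strand, from 56 to 44 bases before its start. The 250 bases before the start of these 3 genes are printed with the repeat in capitals, because they hold a repeat of the kind searched for. Which receptors bind these repeats was not tested. The Dhrs3 sequence is printed because Dhrs3 moved most among the 9 genes, although none of its 3 windows held a repeat. Each sequence is written 5′ to 3′ on the gene's own strand. The windows are chr14:16575477-16575726 on the minus strand for Rarb, chr19:37697558-37697807 on the plus strand for Cyp26a1, chr8:117095615-117095864 on the plus strand for Bco1 and chr4:144892577-144892826 on the plus strand for Dhrs3.
Rarb: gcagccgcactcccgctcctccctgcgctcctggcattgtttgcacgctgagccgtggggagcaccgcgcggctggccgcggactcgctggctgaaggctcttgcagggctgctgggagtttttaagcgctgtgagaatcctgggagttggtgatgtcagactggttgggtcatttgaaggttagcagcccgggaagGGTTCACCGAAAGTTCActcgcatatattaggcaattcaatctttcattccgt
Cyp26a1: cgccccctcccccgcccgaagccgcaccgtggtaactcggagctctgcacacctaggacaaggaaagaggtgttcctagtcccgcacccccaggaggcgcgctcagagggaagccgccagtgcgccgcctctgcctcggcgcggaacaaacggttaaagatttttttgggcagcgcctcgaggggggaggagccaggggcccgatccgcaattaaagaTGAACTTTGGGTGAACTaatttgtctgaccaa
Bco1: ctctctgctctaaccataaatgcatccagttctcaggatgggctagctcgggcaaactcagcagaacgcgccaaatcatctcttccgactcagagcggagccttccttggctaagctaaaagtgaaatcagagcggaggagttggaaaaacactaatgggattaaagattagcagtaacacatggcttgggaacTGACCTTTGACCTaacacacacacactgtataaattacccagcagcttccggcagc
Dhrs3: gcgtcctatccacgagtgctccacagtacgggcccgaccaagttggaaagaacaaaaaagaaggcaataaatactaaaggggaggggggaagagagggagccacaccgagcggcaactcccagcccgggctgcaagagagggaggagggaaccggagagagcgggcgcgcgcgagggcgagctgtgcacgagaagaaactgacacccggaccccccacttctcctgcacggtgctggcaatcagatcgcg
Such repeats were rare. Of 32851 promoter windows, 32 held a DR5 (0.0974%), 73 a DR1 (0.222%) and 88 a DR2 (0.268%). A match describes the letters only, and a window without a match says nothing about sites elsewhere.

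Total counts ran from 27496645 to 35852785 per library, and levels are given as CPM, counts relative to the library total after scaling by the TMM method over the 7 libraries. The detection floor was set at 3 counts, which is 0.0721 to 0.123 CPM depending on the library. The 10 β-cell markers, Ins1 and Ins2 among them, took 24.8% to 38.7% of all counts, and none of them was at 0 in any library. Acinar marker genes summed to 11590 and 137100 CPM in the KO_db/db libraries, with mouse 1 the higher, against 223 to 402 CPM in db/db and 80.7 to 245 CPM in db/+, and the 6 Reg genes to 339 to 3015, 7.77 to 9.03 and 1.07 to 7.89 CPM. Aldh1a3 checked the labels: it was at 99.3 and 195 CPM in db/db mice 1 and 2, 4.93 and 7.90 CPM in KO_db/db mice 1 and 2, and 0.0727 to 0.584 CPM in the 3 db/+ mice. It fell from db/db to KO_db/db by 4.50 on the log2 scale (SE 0.435, edgeR adjusted p = 0.0443), but remained 4.44 log2 units above db/+ (SE 0.640, edgeR adjusted p = 0.00327). Without KO_db/db mouse 1 or db/db mouse 1 the edgeR adjusted p of that fall was 0.0513 and 0.0575. Because these are bulk libraries, a change in the number of cells of a type and a change in RNA per cell cannot be told apart in any value given here.

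Each pair of groups was compared with edgeR's quasi-likelihood test, and p-values were adjusted by the Benjamini-Hochberg method over all genes tested. A gene is called at an adjusted p under 0.05, and the filter on low counts left 6 of the 9 genes to test, without Crabp2, Cyp26b1 and Rarb. Between db/db and db/+, Dhrs3 and Rxra were higher and Rbp4 lower in db/db, which makes 3 of 6 called where 37.8% of all 13406 genes tested were called, 19.9% as higher and 18.0% as lower. Between KO_db/db and db/+, KO_db/db had more Dhrs3, Rara and Rxra, again 3 of 6, where 38.4% of 13228 genes were called, 20.5% as higher and 17.9% as lower. Between KO_db/db and db/db, 0 of the 6 was called, where 0.319% of 13486 genes were, 0.126% as higher and 0.193% as lower. In that last comparison Rbp4 and Dhrs3 had an unadjusted p under 0.05, as did 20.9% of all genes tested (48.2% in db/db relative to db/+ and 48.8% in KO_db/db relative to db/+), and both were called by DESeq2, with 10.6% of all genes it tested, and by edgeR without the filter on low counts, with 8.00%. The 2 groups did not overlap in 3 of the 6 genes in KO_db/db relative to db/db, 4 in db/db relative to db/+ and 3 in KO_db/db relative to db/+, where 57.5%, 63.1% and 64.0% of all genes tested did not. The 3 comparisons share groups, so their values are not independent of each other.

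**Figure D1:**
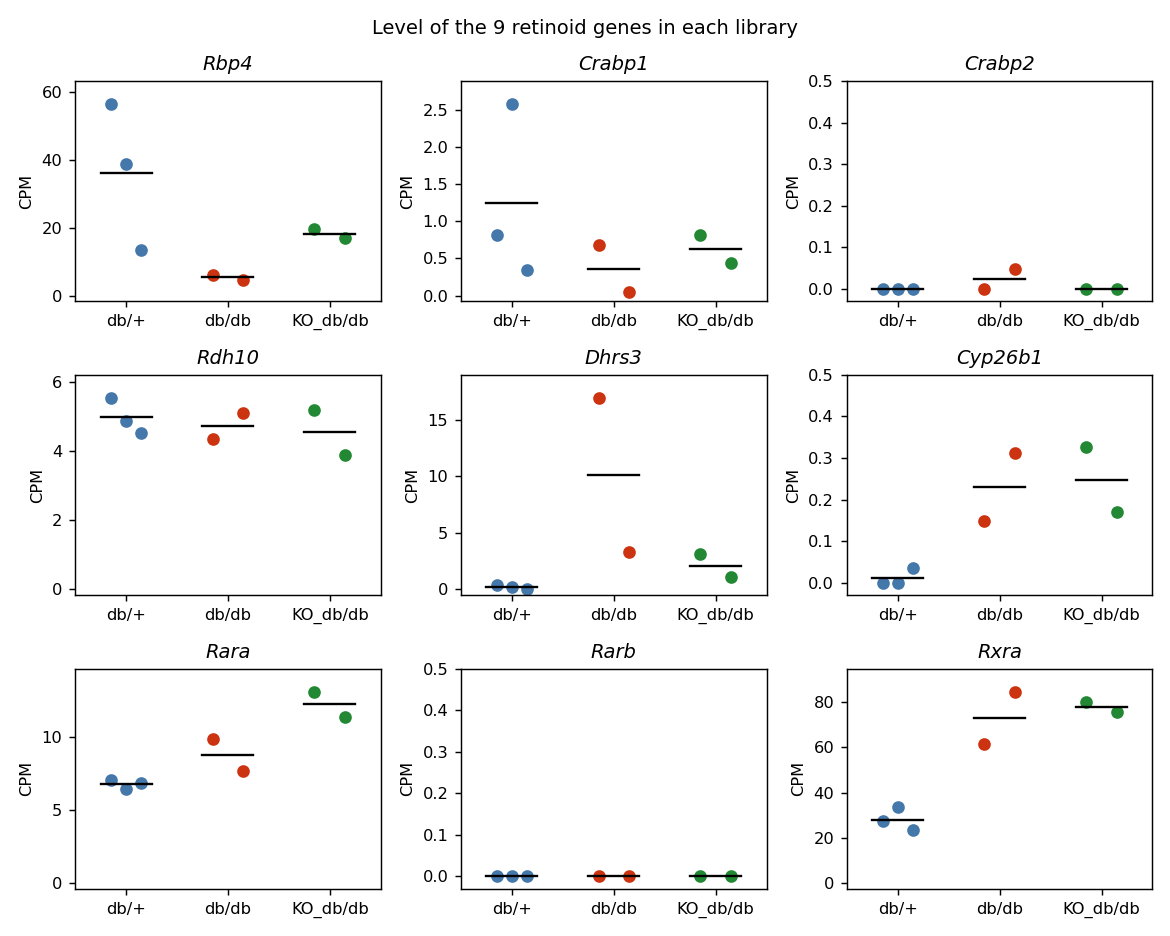
Level of the 9 genes in CPM, on a linear axis for each gene, with a point for each mouse and a bar at the group mean (3 db/+, 2 db/db and 2 KO_db/db mice). Rbp4 was lowest in the db/db mice, Dhrs3 was highest in them and at most 0.410 CPM in db/+, Rxra was above 60 CPM in all 4 Lepr db/db mice, and Rarb was at 0 throughout.

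Among the carriers, Rbp4 was lower in db/db than in lean β-cells, and the KO_db/db mean lay between. Rbp4 (chr19:38116629-38125281, minus strand) encodes the plasma carrier of retinol. It was at 56.4, 38.6 and 13.4 CPM in db/+ mice 1, 2 and 3, at 6.13 and 4.59 CPM in db/db mice 1 and 2, and at 19.6 and 16.9 CPM in KO_db/db mice 1 and 2. Both db/db mice were below every other mouse, whereas the KO_db/db mice fell inside the wide db/+ range. From db/+ to db/db it fell by 2.78 on the log2 scale (SE 0.581, edgeR adjusted p = 0.0110), and by 2.59 without db/db mouse 2, where the call was lost (edgeR adjusted p = 0.0579). KO_db/db exceeded db/db by a log2 fold change of 1.78 (SE 0.223), which did not pass the threshold with edgeR (adjusted p = 0.0675), but passed it with DESeq2 (adjusted p = 8.72e-08) and with edgeR when the filter on low counts was omitted (adjusted p = 3.86e-05). Over the alternatives run, that log2 fold change stayed between 1.59 and 2.00 and the adjusted p between 8.72e-08 and 0.128. The log2 fold change of KO_db/db relative to db/+ was -0.98 (SE 0.521, edgeR adjusted p = 0.181).

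The order of the 7 libraries by Rbp4 was the order by Sst, the gene for somatostatin, the hormone of islet delta-cells. Sst was at 2274, 725 and 364 CPM in db/+ mice 1, 2 and 3, at 164 and 83.0 CPM in db/db mice 1 and 2, and at 626 and 500 CPM in KO_db/db mice 1 and 2. All 7 libraries held the same rank for both genes, from db/+ mouse 1 at the top to db/db mouse 2 at the bottom. Among 12919 genes, Sst had the second smallest distance to the Rbp4 pattern, a root mean square difference of 0.385 log2 units after centring. Kynu (0.355), an enzyme of tryptophan breakdown, came before it, and Gatm (0.421), an enzyme of creatine synthesis, after it. Kynu was below the detection floor in db/db mice 1 and 2, at 0.0296 and 0.0240 CPM. With a prior count of 0.5 in place of 2, Kynu was no longer among the 3 nearest genes, whereas Sst and Gatm were. The 7 points share library depth and scaling, so the likeness is a description. There were 2.48 to 5.53 Rbp4 counts for every 100 Sst counts, a smaller fold range than that of either gene alone. Other delta-cell markers did not follow the order throughout: Hhex and Ghsr each matched the Rbp4 rank in 3 of the 7 libraries, and Rgs2 in 0. The 5 markers together summed to 513 to 2486 CPM in db/+, 574 to 671 CPM in db/db and 614 to 849 CPM in KO_db/db, and none was at 0 in any library. The glucagon gene Gcg matched the Rbp4 rank in 3 libraries and the pancreatic polypeptide gene Ppy in 0. Yet Gcg kept nearly the same order, with ranks of 3 and 4 in KO_db/db mice 1 and 2, and 5 and 7 in db/db mice 1 and 2. In db/+ mice 1, 2 and 3 its ranks were 2, 1 and 6. Rbp4 had ranks of 3 and 4, 6 and 7, and 1, 2 and 5 in these libraries. A near match to the Rbp4 order was thus not limited to Sst. Rbp4 and Sst were set side by side after their values had been seen, and the part of delta-cells in the Rbp4 differences was not tested.

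**Figure D2:**
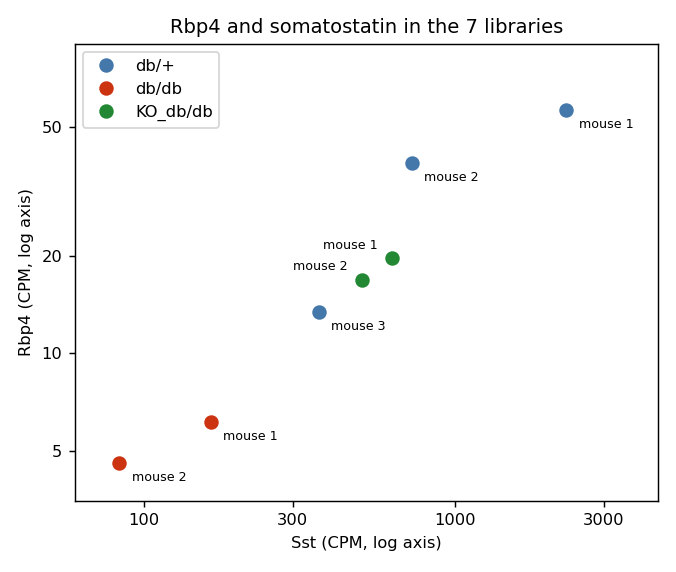
Rbp4 against Sst in CPM, both axes logarithmic, with a point for each of the 7 mice labelled by its number and coloured by group. The points rise together from db/db mouse 2 (83.0 CPM of Sst, 4.59 CPM of Rbp4) to db/+ mouse 1 (2274 and 56.4 CPM).

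Among the cellular carriers of retinoic acid, Crabp1 and Crabp2 had low counts. Crabp1 (chr9:54764748-54773110, plus strand) encodes a cytosolic protein that binds retinoic acid. It was at 0.819, 2.58 and 0.344 CPM in db/+ mice 1, 2 and 3, at 0.681 and 0.0481 CPM in db/db mice 1 and 2, and at 0.814 and 0.438 CPM in KO_db/db mice 1 and 2. The groups overlapped in every comparison, and db/+ mouse 2 and db/db mouse 2 were the extremes. Its log2 fold change was -1.82 in db/db relative to db/+ (SE 1.19, edgeR adjusted p = 0.267) and 0.80 in KO_db/db relative to db/db (SE 1.16, edgeR adjusted p = 0.714), and the sign of the latter turned to -0.12 without db/db mouse 2. Crabp2 (chr3:87948666-87953376, plus strand), which encodes the related protein that delivers retinoic acid to RARs, had 2 counts in all, both in db/db mouse 2, so no difference was detectable at this depth.

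Of the turnover enzymes, Dhrs3 spanned the widest range of levels, Rdh10 the narrowest, and Cyp26b1 lay near the detection floor. Dhrs3 (chr4:144892827-144928209, plus strand) encodes the reductase that returns retinaldehyde to retinol. It was at 0.410, 0.182 and 0.0344 CPM in db/+ mice 1, 2 and 3, from 10, 5 and 1 counts, at 16.9 and 3.32 CPM in db/db mice 1 and 2, from 572 and 138 counts, and at 3.14 and 1.07 CPM in KO_db/db mice 1 and 2, from 77 and 44 counts. No 2 groups overlapped, but db/db mouse 2 and KO_db/db mouse 1 nearly met, and db/db mouse 1 stood apart from all others. From db/+ to db/db it rose by a log2 fold change of 5.59 (SE 0.902, edgeR adjusted p = 0.00439), which was 3.98 without db/db mouse 1 (edgeR adjusted p = 0.0202) and 6.49 without db/+ mouse 1 (edgeR adjusted p = 0.0139). It was also higher in KO_db/db than in db/+ by 3.34 (SE 0.870, edgeR adjusted p = 0.0238). That call was lost without KO_db/db mouse 1 (2.37, edgeR adjusted p = 0.148) or db/+ mouse 2 (3.27, edgeR adjusted p = 0.0763).

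Between KO_db/db and db/db the log2 fold change of Dhrs3 was -2.28 (SE 0.900, edgeR adjusted p = 0.238). It passed the threshold with DESeq2 (-2.25, adjusted p = 0.0335) and with edgeR without the filter on low counts (-2.29, adjusted p = 0.00810), and it shrank to -0.66 without db/db mouse 1 (edgeR adjusted p = 0.732). The sign was negative in all 10 alternatives. Within the db/db group, the mouse with more Dhrs3 was the one with less Aldh1a3. Mouse 1 had 16.9 CPM of Dhrs3 beside 99.3 CPM of Aldh1a3, and mouse 2 had 3.32 CPM beside 195 CPM. In KO_db/db, mouse 1 had 3.14 CPM of Dhrs3 beside 4.93 CPM of Aldh1a3, and mouse 2 had 1.07 beside 7.90 CPM, the same order. The db/+ mice did not keep it throughout: mouse 1 exceeded mouse 2 in both Dhrs3 (0.410 and 0.182 CPM) and Aldh1a3 (0.205 and 0.0727 CPM). Mouse 3, however, had the least Dhrs3 of the db/+ mice (0.0344 CPM) and the most Aldh1a3 (0.584 CPM). In db/+ mice 1, 2 and 3 these values rest on 10, 5 and 1 counts of Dhrs3 and 5, 2 and 17 of Aldh1a3. A relation between the 2 genes within groups was not tested.

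Rdh10 (chr1:16105774-16133734, plus strand), which encodes a main enzyme oxidising retinol to retinaldehyde, was nearly level. It was at 5.53, 4.87 and 4.50 CPM in db/+ mice 1, 2 and 3, at 4.35 and 5.10 CPM in db/db mice 1 and 2, and at 5.17 and 3.89 CPM in KO_db/db mice 1 and 2. All 3 groups overlapped. Its log2 fold changes were -0.10 in db/db relative to db/+ (SE 0.211), -0.13 in KO_db/db relative to db/+ (SE 0.222) and -0.05 in KO_db/db relative to db/db (SE 0.282), with edgeR adjusted p-values of 0.749, 0.671 and 0.932. Cyp26b1 (chr6:84571414-84593908, minus strand), which encodes an enzyme that breaks down retinoic acid, had 8 and 7 counts in KO_db/db mice 1 and 2, 5 and 13 in db/db mice 1 and 2, and 0, 0 and 1 in db/+ mice 1, 2 and 3. Every Lepr db/db library thus had more than any lean one. The ratio of scaled counts was 19.3 for db/db to db/+ (95% interval 3.05 to 806), 18.5 for KO_db/db to db/+ (2.85 to 779) and 0.956 for KO_db/db to db/db (0.448 to 2.01). These intervals cover counting error only and not the spread between mice, and even the highest level, 0.326 CPM, was close to the floor.

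Of the receptors, Rxra was higher in both Lepr db/db groups than in lean β-cells, Rara was highest in KO_db/db, and Rarb was not detected. Rxra (chr2:27676440-27762957, plus strand) encodes retinoid X receptor α, a partner not only of RARs but of many nuclear receptors. It was at 27.3, 33.7 and 23.3 CPM in db/+ mice 1, 2 and 3, at 61.5 and 84.6 CPM in db/db mice 1 and 2, and at 79.9 and 75.6 CPM in KO_db/db mice 1 and 2. The db/+ mice were below all others, and the KO_db/db mice fell inside the db/db range. It rose from db/+ to db/db by a log2 fold change of 1.35 (SE 0.195, edgeR adjusted p = 0.00297) and was higher in KO_db/db than in db/+ by 1.47 (SE 0.154, edgeR adjusted p = 0.00127). Both calls held in all 11 alternatives, with log2 fold changes of 1.10 to 1.57 and 1.36 to 1.63. Between KO_db/db and db/db the log2 fold change was 0.10 (SE 0.188, edgeR adjusted p = 0.785), and it was -0.11 without db/db mouse 1.

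The exons of Rxra add up to 5.46 kb, and long genes were called higher more often in db/db than short ones. Among genes of 5.24 to 7.68 kb, to which Rxra belongs, 22.6% were called higher in db/db than in db/+ and the median log2 fold change was 0.04. When genes were split by exon length into 5 sets of like size, the shares were 11.4% in the set of the shortest genes and 33.1% in that of the longest, with medians of -0.17 and 0.23. The sets were formed after the data had been seen, and the part of gene length in the Rxra difference was not tested.

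Rara (chr11:98927818-98974942, plus strand) encodes retinoic acid receptor α. It was at 7.09, 6.44 and 6.84 CPM in db/+ mice 1, 2 and 3, at 9.83 and 7.67 CPM in db/db mice 1 and 2, and at 13.1 and 11.4 CPM in KO_db/db mice 1 and 2. The 3 groups did not overlap, with db/+ lowest and KO_db/db highest. It was higher in KO_db/db than in db/+ by a log2 fold change of 0.85 (SE 0.150, edgeR adjusted p = 0.00639), a call that held in all 11 alternatives (0.74 to 0.96). Its exons add up to 4.37 kb, and 18.6% of genes of 3.74 to 5.27 kb were called higher in that comparison. The steps from db/+ to db/db (0.34, SE 0.180, edgeR adjusted p = 0.183) and from db/db to KO_db/db (0.50, SE 0.211, edgeR adjusted p = 0.260) were not called. Rarb (chr14:16430839-16819156, minus strand), the gene for retinoic acid receptor β whose promoter holds the printed DR5, had 0 counts in all 7 libraries, which allows up to 0.0135 CPM when 3 counts are set against the 7 scaled totals together. Its exons overlap those of Top2b and Gm48162 on the opposite strand. Cyp26a1, the other DR5 gene printed, was at 0 in 6 libraries and at 0.0814 CPM in KO_db/db mouse 1, below that library's floor of 0.122 CPM. Of the 31 genes with a DR5 in the window, 6 could be tested in db/db relative to db/+, where 1 was called higher and 0 lower beside 37.8% of all genes called. In KO_db/db relative to db/+, 1 of 6 was called higher and 1 lower beside 38.4%, and in KO_db/db relative to db/db 0 of 5 was called beside 0.319%.

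**Figure D3:**
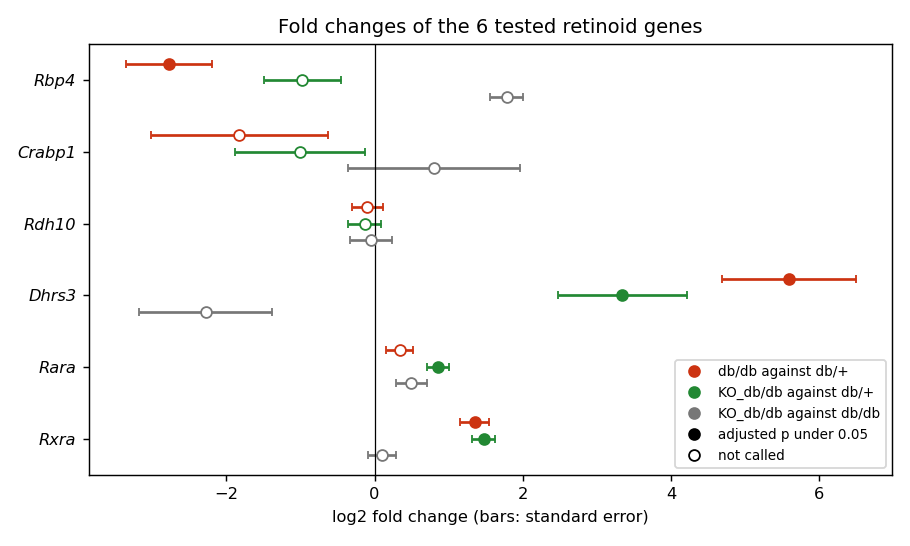
Log2 fold change of the 6 tested genes in each comparison on the horizontal axis, with bars of 1 standard error, filled where edgeR's adjusted p was under 0.05. Dhrs3 had the largest values (5.59 in db/db relative to db/+ and -2.28 in KO_db/db relative to db/db), and Rdh10 lay within 0.13 of 0 in each comparison.

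Levels can be compared between genes only per length, in CPM per kb of exon. In db/+ mice Rbp4 led with a mean of 26.9 ± 16.1 CPM per kb (SD, n = 3), ahead of Rxra at 5.15 ± 0.957. Crabp1 (1.56 ± 1.47), Rara (1.56 ± 0.0753) and Rdh10 (1.19 ± 0.125) followed, with the range of Crabp1 covering those of the other two, and Dhrs3 was far lower at 0.0713 ± 0.0646. In db/db mice the order began with Rxra at 13.4 ± 2.99 CPM per kb (SD, n = 2), followed by Rbp4 at 3.99 ± 0.810, Dhrs3 at 3.46 ± 3.29 and Rara at 2.01 ± 0.350. The 2 values of Dhrs3, 1.13 and 5.79, enclosed those of Rbp4 and Rara. In KO_db/db mice Rxra (14.2 ± 0.553) and Rbp4 (13.6 ± 1.45) overlapped at the top, and Rara was at 2.80 ± 0.285. Rdh10 (1.09 ± 0.218), Crabp1 (0.781 ± 0.332) and Dhrs3 (0.718 ± 0.499) overlapped below it. Among the receptors, Rxra had about the level of Rxrb in db/+ (5.15 against 5.26 ± 0.532 CPM per kb) and more than it in every Lepr db/db mouse, where Rxrb was at 4.42 to 6.20. Rarg (2.77 ± 0.402) exceeded Rara in every db/+ mouse, whereas in KO_db/db the ranges of the 2 genes overlapped. Neither Rarg nor Rxrb was called in any comparison, with log2 fold changes between -0.10 and 0.12.

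The wider pathway was followed in 8 lists that cover uptake, storage, oxidation, reduction, synthesis, breakdown, receptors and response genes, 65 genes in all with the 9 genes included. Of these, 37 could be tested in db/db relative to db/+, where 10 were called higher and 4 lower. Together that is about the 37.8% called over all genes, which were 19.9% higher and 18.0% lower. In KO_db/db relative to db/+, 8 of 37 were called higher and 4 lower, below the 38.4% of all genes, and in KO_db/db relative to db/db 0 of 38 was higher and 1, Aldh1a3, lower, where 0.319% of all genes were called. The median log2 fold changes of the 3 sets were 0.22, 0.11 and -0.10, beside 0.01, 0.00 and -0.02 over all genes tested. With 6 coregulators and 12 partner receptors of RXR added, DESeq2 called 4 higher and 6 lower in KO_db/db relative to db/db, among 55 tested, where it called 10.6% of all genes, whereas edgeR called the same 1 gene.

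Of 10 genes for carriers and uptake, 7 could be tested in db/db relative to db/+. Of these, 3 were higher, Ttr and Fabp5 among them, and 1, Rbp4, was lower, beside 37.8% called over all genes. Ttr, the gene for transthyretin, the plasma partner of RBP4, moved opposite to Rbp4. It was at 520, 502 and 674 CPM in db/+ mice 1, 2 and 3, at 1925 and 1727 CPM in db/db mice 1 and 2, and at 611 and 550 CPM in KO_db/db mice 1 and 2. Both db/db mice were above all others, and KO_db/db lay inside the db/+ range. Ttr rose by a log2 fold change of 1.66 from db/+ to db/db (SE 0.171, edgeR adjusted p = 0.00110), and its value in KO_db/db relative to db/db was -1.64 (SE 0.209, edgeR adjusted p = 0.0702, DESeq2 adjusted p = 4.21e-21). Ttr is also abundant in alpha-cells, whose hormone gene Gcg was at 378 to 1178 CPM in db/+, 351 to 608 CPM in db/db and 620 to 1017 CPM in KO_db/db, so that Gcg was lower on average where Ttr was higher. Fabp5, a fatty acid carrier that also binds retinoic acid, was at 9.15 and 18.3 CPM in db/db, 1.64 to 2.01 CPM in db/+ and 4.81 and 7.24 CPM in KO_db/db. It rose from db/+ to db/db by a log2 fold change of 2.93 (edgeR adjusted p = 0.00130), and was also higher in KO_db/db than in db/+ by 1.77 (edgeR adjusted p = 0.00398).

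Bco1, with the printed DR1, and Scarb1, a lipoprotein receptor that takes up carotenoids, both rose from db/+ to db/db. The other 2 tested genes of the storage list were not called, where 37.8% of all genes tested were called. Bco1 was at 22.2 and 18.0 CPM in db/db mice 1 and 2, 7.38 to 9.18 CPM in db/+, and 9.04 and 13.2 CPM in KO_db/db mice 1 and 2. Scarb1 was at 37.1 and 33.9 CPM in db/db mice 1 and 2, 11.1 to 11.4 CPM in db/+, and 18.0 and 19.3 CPM in KO_db/db mice 1 and 2. In both genes the db/db mice were above all others, with rises over db/+ of 1.20 (edgeR adjusted p = 0.00283) and 1.63 (edgeR adjusted p = 0.000503) on the log2 scale. In KO_db/db relative to db/db the log2 fold changes were -0.83 for Bco1 and -0.92 for Scarb1, with edgeR adjusted p-values of 0.161 and 0.0840 and DESeq2 adjusted p-values of 0.0473 and 0.000228. Lrat, which stores retinol as esters, and Stra6, the membrane receptor for RBP4, did not exceed 0.0364 and 0.0889 CPM in any library.

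Few enzymes other than Dhrs3 that interconvert retinol and retinaldehyde were called, and those only as lower than in db/+. Of 6 tested genes of the oxidation list, 1 was called lower in db/db and 1 in KO_db/db, each relative to db/+. Of 7 in the reduction list, 1 was lower in db/db and 2 in KO_db/db. Over all genes tested, 18.0% and 17.9% were called lower in these comparisons, respectively. Adh1, an alcohol dehydrogenase that oxidises retinol, was at 125 to 178 CPM in db/+, 93.8 to 107 CPM in db/db and 68.8 to 85.2 CPM in KO_db/db. It fell from db/+ to db/db by 0.60 on the log2 scale (edgeR adjusted p = 0.0284), and its log2 fold change in KO_db/db relative to db/+ was -0.95 (edgeR adjusted p = 0.00698). Dhrs4, a reductase that acts on retinaldehyde among other carbonyls, was at 24.6 to 28.4 CPM in db/+, 6.52 and 7.37 CPM in db/db, and 8.78 and 13.4 CPM in KO_db/db. Its log2 fold changes against db/+ were -1.94 in db/db (edgeR adjusted p = 0.000578) and -1.24 in KO_db/db (edgeR adjusted p = 0.00457), opposite to those of Dhrs3. Rdh14 was called only in KO_db/db relative to db/+ (-0.51, edgeR adjusted p = 0.0117).

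Among the synthesis enzymes, Aldh1a1 was at 4.24 and 0.851 CPM in KO_db/db mice 1 and 2, against 0.0344 to 0.328 CPM in db/+ and 0.207 and 0.649 CPM in db/db. It was called higher in KO_db/db than in db/+ (4.02, SE 0.970, edgeR adjusted p = 0.0184). KO_db/db mouse 1, which held most Aldh1a1, also held most acinar marker counts, 137100 against 11590 CPM in mouse 2, and their part in the result was not tested. Aldh1a2 did not exceed 0.0240 CPM. None of the 3 breakdown genes could be tested, and Cyp26c1, like Rarb, was at 0 in all libraries.

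**Figure D4:**
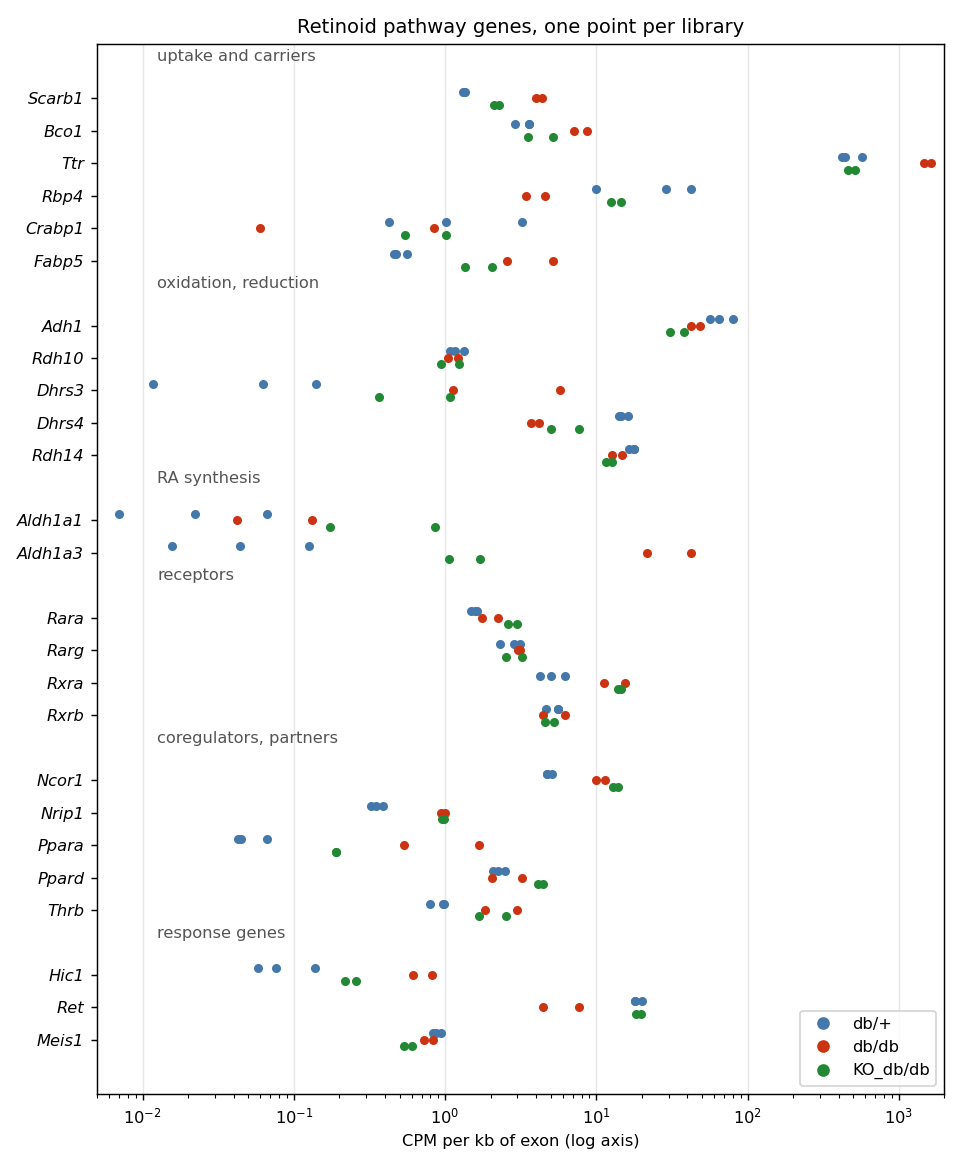
Level of retinoid pathway genes in CPM per kb of exon on a logarithmic axis, grouped by role, with a point for each mouse coloured by group. A gene at 0 in a library has no point there. Ttr, Bco1, Scarb1, Fabp5 and Dhrs3 were highest in db/db, Ret and Rbp4 lowest in db/db, and Rxra, Ncor1 and Nrip1 were above db/+ in both Lepr db/db groups.

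Of 25 genes known to respond to retinoic acid in various tissues, only 10 had enough counts to be tested. In db/db relative to db/+, 4 were higher, Dhrs3, Hic1 and Nrip1 among them, and 1, Ret, was lower. Of all genes tested in that comparison, 37.8% were called, 19.9% as higher and 18.0% as lower. Hic1, which encodes a transcriptional repressor, was at 3.08 and 2.31 CPM in db/db, 0.218 to 0.516 CPM in db/+, and 0.814 and 0.972 CPM in KO_db/db, and it rose by 2.93 from db/+ to db/db (edgeR adjusted p = 0.00504). Ret, which encodes a receptor tyrosine kinase, was at 30.2 and 52.1 CPM in db/db, 122 to 136 CPM in db/+, and 133 and 123 CPM in KO_db/db mice 1 and 2. It fell by 1.64 from db/+ to db/db (edgeR adjusted p = 0.00284), and its log2 fold change of 1.65 in KO_db/db relative to db/db had an edgeR adjusted p of 0.0889 and a DESeq2 adjusted p of 3.77e-07. Meis1, which encodes a homeodomain factor, was called only in KO_db/db relative to db/+ (-0.62, edgeR adjusted p = 0.0243). In KO_db/db relative to db/db 0 of the 10 was called, where 0.319% of all genes were. Their median log2 fold change was -0.21 beside -0.02 over all genes.

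Coregulators are the proteins that RAR and RXR recruit to switch genes off or on. All 6 measured were called higher in KO_db/db than in db/+, and 3 of them, Ncor1 and Nrip1 included, in db/db than in db/+. Over all genes tested, 20.5% and 19.9% were called higher in these comparisons, respectively. Ncor1, a corepressor of unliganded receptors, had a mean of 62.0 ± 2.79 CPM in db/+ (SD, n = 3) and was at 127 and 145 CPM in db/db mice 1 and 2, and 178 and 166 CPM in KO_db/db mice 1 and 2. Its log2 fold changes against db/+ were 1.11 in db/db (SE 0.110, edgeR adjusted p = 0.00102) and 1.48 in KO_db/db (SE 0.0904, edgeR adjusted p = 0.000603). Nrip1, a corepressor of liganded receptors, gave 1.42 (edgeR adjusted p = 0.00176) and 1.46 (edgeR adjusted p = 0.00157). The coactivators Ncoa1, Ncoa2 and Ncoa3 were called only in KO_db/db relative to db/+, with log2 fold changes of 0.88, 1.09 and 0.84 and edgeR adjusted p-values of 0.00345, 0.00241 and 0.00182. Exon lengths of the 6 genes ran from 7.89 to 15.6 kb, and of the longest genes, those of 7.69 kb or more, 38.2% were called higher in KO_db/db relative to db/+ beside 20.5% of all genes. The part of gene length in the coregulator result was not tested.

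Of the 12 receptors that pair with RXR, Ppara and Thrb were higher and Vdr lower in db/db than in db/+. Ppara, Ppard, Thra and Thrb were called higher when KO_db/db was compared with db/+. Over all genes tested, 37.8% and 38.4% were called in these comparisons, respectively. Ppara, a receptor for fatty acids, was at 6.40 and 2.04 CPM in db/db mice 1 and 2, 0.164 to 0.255 CPM in db/+, and 0.733 and 0.729 CPM in KO_db/db. As with Dhrs3, db/db mouse 1 was the highest library. Its log2 fold changes against db/+ were 4.36 in db/db (SE 0.597, edgeR adjusted p = 0.00255) and 1.87 in KO_db/db (SE 0.560, edgeR adjusted p = 0.0375). Thrb, a thyroid hormone receptor, gave 1.37 (edgeR adjusted p = 0.00562) and 1.21 (edgeR adjusted p = 0.00572). Vdr, the vitamin D receptor, was at 92.4 and 65.6 CPM in db/db against 119 to 185 CPM in db/+, a fall of 0.98 on the log2 scale (edgeR adjusted p = 0.0160), and at 167 and 122 CPM in KO_db/db mice 1 and 2. Ppard and Thra gave 0.93 (edgeR adjusted p = 0.00218) and 0.68 (edgeR adjusted p = 0.00266) in KO_db/db relative to db/+.

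The genes with the pattern most like each of the other tested genes were found by the same distance over the 7 libraries. For Rxra they were Efna1, Ahcy and Micall1, at 0.0870, 0.114 and 0.141 log2 units, and for Rara they were Actn4, Gripap1 and Dtx3, at 0.110, 0.111 and 0.114. For Rdh10, whose level varied least, Sdhaf1, Poglut1 and Apba3 lay at 0.0859, 0.0891 and 0.0897. Dhrs3 had no close neighbour: the nearest, Fbp2, lay at 0.683 and was at 16.6 and 8.61 CPM in db/db mice 1 and 2, 2.36 and 3.14 CPM in KO_db/db, and 0.0344 to 0.410 CPM in db/+. Bmp3 (0.779) and Pet117 (0.806) followed. Pet117 was at 0 in db/+ mice 1, 2 and 3, and was not among the 3 nearest genes with a prior count of 0.5. For Crabp1, H2bc18, Rab29 and Slc6a15 lay at 0.499, 0.614 and 0.664, from values near the floor in several libraries.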

How the data were processed

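Poly-A libraries of sorted β-cells were sequenced by the authors, who deposited estimated counts per gene from kallisto, rounded to whole numbers and not normalized. The submitters' processing notes name bcl2fastq 2.19, kallisto 0.44.0 and GRCm38, and the annotation release and any use of strand are not given in the sources used here. kallisto divides reads among similar transcripts, so paralogs are uncertain. From these counts, each pair of groups was fitted with edgeR 4.0.16 in R 4.3.3 (filterByExpr with a minimum count of 10, TMM scaling, quasi-likelihood test, Benjamini-Hochberg threshold 0.05). The standard error is the absolute log2 fold change over the root of F. DESeq2 1.42.0, RLE scaling, TMM without acinar and Reg genes, no filter, all 7 libraries in one fit, a replicate block and leaving out each library were alternatives. On simulated data with a log2 fold change of 2, edgeR recovered 152 of 200 changed genes for KO_db/db and db/db. There were 15 other calls among 13486 genes. It recovered 160 and 161 when db/db and KO_db/db were compared with db/+. The simulation used the fitted spread of each gene and changed only 200 genes, so it does not measure power in the real counts. In those, 0 of 25 tested acinar markers was called in KO_db/db relative to db/db, at a median log2 fold change of 8.24. Gene positions and exon lengths came from GENCODE M21 on GRCm38 (34222 symbols matched), and 0 columns were left unused. Groups came from the labels. Replicates differed beyond sampling noise. The smallest two-sided p of an exact permutation test is 0.333 for groups of 2 and 2 mice and 0.100 for groups of 2 and 3.

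Members and lists were chosen with earlier results of these data known. Named are the 9 genes, Aldh1a3, genes of the retinoid, coregulator and partner lists called in at least 1 comparison with a group mean of at least 1 CPM, and the 3 genes most like each member with such a mean, by the root mean square difference of centred log2 CPM (prior count 2). Further list genes (Rarg, Rxrb, Cyp26a1, Cyp26c1, Lrat, Stra6, Aldh1a2) were named after their values were seen, as were markers of other cell types (Sst, Hhex, Ghsr, Rgs2, Gcg, Ppy). Some genes that meet this rule are not reported here.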

Additional observations from a re-analysis of the deposited data

How the results depend on the processing

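Of 224 log2 fold changes recomputed for the tested genes and Aldh1a3, 206 kept their direction and their side of the threshold, 6 passed it newly, 5 no longer passed it and 7 changed sign. The 7, none of them called, came from leaving out 1 library. With a library left out, Crabp1 ranged from -0.12 (without db/db mouse 2) to 3.60 (without db/db mouse 1), Rdh10 from -0.27 to 0.16 (0.07 without db/db mouse 2) and Rxra from -0.11 to 0.35 in KO_db/db relative to db/db. Rdh10 ranged from -0.22 to 0.017 in db/db relative to db/+. In KO_db/db relative to db/+, Crabp1 ranged from -1.50 to 0.11 and Rdh10 from -0.35 to 0.065. KO_db/db relative to db/db had 43 genes called, 1374 with DESeq2, 1570 without the filter on low counts, 818 with all 7 libraries in one fit, and 1 (without db/db mouse 1) to 261 (without db/db mouse 2) with a library left out; DESeq2 and the fit without the filter each called 2 of the 9 genes, Rbp4 and Dhrs3. With a library left out, db/db relative to db/+ gave 3277 (without db/+ mouse 1) to 4459 and KO_db/db relative to db/+ 3180 (without KO_db/db mouse 1) to 4688. A lone library of a group was assumed to vary like the others. Rbp4 in KO_db/db relative to db/+ was called without db/+ mouse 3 (-1.37, edgeR adjusted p = 0.00733). With the half-sites AGGTCA and AGTTCA alone, 0.0822% of promoters held a DR1 and 0.0396% each a DR2 and a DR5. CPM over plain totals moved 5 of 27 group means by over 1 SD. Fold changes of the other pathway genes were not recomputed without single libraries. The causes were not tested.

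The mouse numbers did not pair mice: deviations of same-numbered libraries correlated at -0.059, 0.0778 and -0.104 in the 3 comparisons. With the number as a replicate block, 22 genes were called in KO_db/db relative to db/db, 4506 in db/db relative to db/+ and 3801 in KO_db/db relative to db/+, and Rbp4 passed the threshold in the last (-1.35, edgeR adjusted p = 0.0113).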
